A study of Homo sapiens with 5 samples.

Results

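The MEG3 and MEG8 expressing nuclei were 1633 of the 6557 barcodes of the 80% portion, a share of 24.9% (exact 95% binomial interval 23.9 to 26.0). They were selected on RNA counts. For each nucleus the unique molecular identifiers (UMIs, counts of single captured RNA molecules) of MEG3 and MEG8 were divided by all its UMIs and scaled by the 98th percentile of that ratio over all barcodes. A nucleus was a member when this value was at least 0.2, was the highest of 6 such pair values and was at least 2 times the next. The other 5 pairs were LINC02055 with AC069277.1 (1197 nuclei), ALDH1A1 with TM4SF4 (1328), AL356804.1 with AL683807.1 (405), TAGLN with MGP (297) and EGFR with AC090578.1 (300), and 1397 nuclei were in none of the 6 groups. The levels of MEG3 and MEG8 in these nuclei therefore follow from the choice and are given as a description.

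The nuclei came from a mixture of 5 human lung adenocarcinoma lines, A549, H1975, H2228, H838 and HCC827, grown separately in the same medium with fetal calf serum and frozen before nuclei were prepared. RNA and open chromatin (ATAC, which counts where a transposase can cut) were read from the same nuclei. The droplets were divided into an 80% and a 20% portion, with 1 RNA and 1 ATAC library each, and full-length RNA of the 20% portion was also read with long reads. No line was treated, every line was cultured alike, and the groups used here are groups of nuclei within the same libraries. The labels tie no barcode to a line, so no line name is given to any group, and each line is 1 established culture. With 1 library per portion there is no replicate and no test, so intervals are exact Poisson or binomial intervals for counting error only. The 20% portion is a second reading of the same mixture, not another culture.

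MEG3 and MEG8 are long noncoding RNAs transcribed from the maternal copy of the imprinted DLK1-DIO3 locus on chromosome 14. In normal tissue the paternal copy instead expresses the protein genes DLK1, a membrane ligand related to those of Notch, RTL1, derived from a retrotransposon, and DIO3, which inactivates thyroid hormone. MEG3 is often silenced in tumours, and its promoter holds a cyclic AMP response element, to which CREB and related factors are known to bind.

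The promoter is shown because the members were chosen on the RNA that starts in it and because an ATAC peak lies over it. It is the RefSeq stretch of 250 bases before to 50 after the MEG3 start, plus strand, hg38, chr14:100825858-100826157, inside the MEG3 gene as GENCODE annotates it and under a peak that overlaps a MEG3 exon. Capitals mark the cyclic AMP response element TGACGTCA, found at base 201. These letters, which read the same on both strands, occur in 1.84% of the 34943 RefSeq promoters of this length.
MEG3 promoter: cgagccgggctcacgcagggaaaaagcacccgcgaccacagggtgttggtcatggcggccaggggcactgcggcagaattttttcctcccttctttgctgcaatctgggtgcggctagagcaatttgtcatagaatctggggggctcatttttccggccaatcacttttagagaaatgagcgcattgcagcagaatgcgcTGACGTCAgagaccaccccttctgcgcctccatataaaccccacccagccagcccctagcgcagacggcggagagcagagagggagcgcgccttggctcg

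In the 80% portion the members held 27538986 UMIs and 19126640 ATAC counts. A member had a median of 15484 UMIs, 5325 genes and 11540 ATAC counts, against a median of 13306 UMIs and 8784 ATAC counts over all barcodes. Thinned to 1000 UMIs each, members showed a median of 774 genes and the other groups 755 to 788. The median share of UMIs from mitochondrial genes was 0.445% in members and 0.606 to 1.22% in the other groups, so members were lowest. Doublet calls fell on 47 members (2.88%), and 39 members had a barcode that also occurred in the 20% portion. The 20% portion gave 320 members among 1286 barcodes, or 24.9% (22.5 to 27.3), with 4057229 UMIs and 3886103 ATAC counts. Long reads were listed for 315 of those 320 barcodes, with a median of 31708 long-read counts against 28250 over all barcodes.

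MEG3 gave 10721 UMIs in members, which is a level of 389 counts per 1000000 of their summed UMIs (CPM). Its level was 2.74 CPM in the LINC02055 group, 10.8 in the ALDH1A1 group, 10.9 in the AL356804.1 group, 10.2 in the TAGLN group and 9.31 in the EGFR group. A member had a median of 6 MEG3 UMIs (quartiles 4 and 9, highest 35), and 98.8% of members had at least 1, against 1.75 to 8.13% of nuclei in the other groups at median depths of 9110 to 16266 UMIs. MEG8 gave 9942 UMIs or 361 CPM, with a median of 5 per nucleus (quartiles 3 and 8, highest 40), and 96.8% of members had at least 1, against 2.26 to 8.43% elsewhere. The levels in the 20% portion were 413 CPM for MEG3 and 380 CPM for MEG8. Both RNAs were found in 95.6% of members, 20 members had no MEG3 UMI and 52 had no MEG8 UMI. Of the genes of the other pairs, members held 482 CPM of EGFR, a growth factor receptor, and 90.8 CPM of ALDH1A1, an aldehyde dehydrogenase, against 7692 and 5676 CPM in the groups chosen on them. TM4SF4 was at 10.8 CPM in members, TAGLN at 7.01 and the remaining 6 genes at 0.545 to 4.32. The nuclei outside all 6 groups were not free of these RNAs, since 48.7% of them had a MEG3 UMI.

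**Figure D1:**
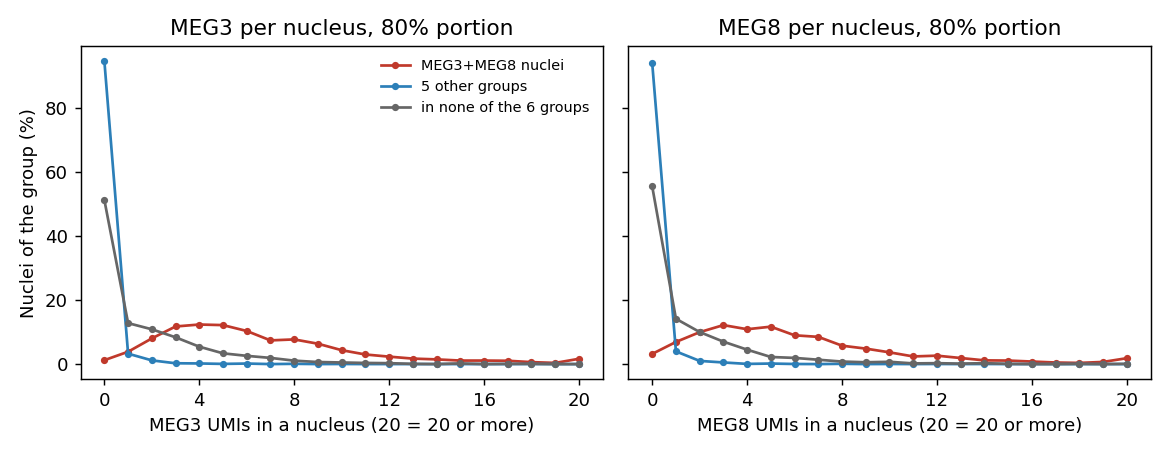
Share of nuclei (%) by the number of MEG3 UMIs (left) and MEG8 UMIs (right) in a nucleus of the 80% portion, for members, for the other 5 groups together and for nuclei in none of the 6 groups. Members are spread around medians of 6 and 5 UMIs while most nuclei of the other groups have 0, and the ungrouped nuclei lie between.

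The boundary of the group was not a gap. The scaling percentile was 0.133% of a nucleus's UMIs, and the lowest member lay at 0.201 on the scaled value with 3 MEG3 and MEG8 UMIs of 11246. The highest nucleus kept out by the minimum lay at 0.199 with 3 of 11342. Within 0.05 above the minimum there were 112 members, and within 0.05 below it 125 nuclei that had MEG3 and MEG8 as their highest pair. The margin kept out another 239 nuclei, of which 59 (24.7%) were called doublets. The ratio to the next pair was 1.99 in the nearest nucleus outside and 2.01 in the nearest inside.

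The neighbours of MEG3 and MEG8 in the locus were at low levels in the members' RNA. MEG9, a further maternally expressed RNA downstream of MEG8, stood at 8.93 CPM in members (246 UMIs) and at 0.0609 to 0.692 CPM in the other groups. RTL1 stood at 8.13 CPM against 0 to 2.35, and since the counting is not stated to use strand, these counts cannot be told from those of the antisense maternal RNA. DIO3OS, the antisense partner of DIO3, was at 5.23 CPM against 0 to 2.86. DLK1 was at 0.109 CPM (3 UMIs) and DIO3 at 0.799 CPM (22 UMIs), the latter below the 1.38 CPM of the AL356804.1 group. MEG9, RTL1 and DIO3OS were thus higher in members than in any other group, but each averaged under 5 CPM over the 6 groups and was left out of the calls. Members of the 20% portion held 6.90 CPM of MEG9, 7.89 of RTL1 and 2.71 of DIO3OS.

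Of 14 measured genes listed in and around the locus, 5 reached the mean of 5 CPM and none was called. A gene was called higher when members were at least 2-fold above the highest other group, and lower when they were at least 2-fold below the lowest. By these rules 2.2% of the 12521 genes compared were higher and 1.77% were lower. YY1, a zinc finger factor encoded upstream of DLK1, stood at 177 CPM in members and 121 to 197 in the other groups. SLC25A29, a mitochondrial carrier of basic amino acids, came nearest to a call with 35.4 CPM against 10.9 to 20.8, and was called higher only in the 20% portion. WARS, a tryptophan tRNA ligase, was at 39.4 CPM against 33.9 to 85.2, WDR25 at 29.6 against 19.1 to 31.4 and PPP2R5C, a phosphatase 2A subunit, at 138 against 80.5 to 137. BEGAIN was at 4.58 CPM against 1.40 to 4.70, LINC00523 and LINC00524 were at 0.291 and 0.581 CPM, and LINC02285 had no UMI in members.

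Chromatin over the MEG3 start was more accessible in members than in any other group. The peak at chr14:100825635-100826543, which overlaps a MEG3 exon and holds the promoter printed above, gave 248 ATAC counts or 13.0 CPM in members (11.4 to 14.7). The other groups gave 0.371 CPM (LINC02055), 4.16 (ALDH1A1), 2.73 (AL356804.1), 0.675 (TAGLN) and 0.580 (EGFR). Members were 3.11-fold (2.24 to 4.43) above the ALDH1A1 group. The peak averaged under 5 CPM over the groups, so it was not among those called. A count was found in 7.65% of members and in 0.167 to 1.73% of nuclei elsewhere. In the 20% portion the peak gave 30 counts or 7.72 CPM in members and at most 5.44 CPM in another group. The next peak, chr14:100827829-100828715 in a MEG3 exon, had 9.62 CPM in members and 7.99 in the AL356804.1 group, and in the 20% portion members (7.72 CPM) were below the highest other group (14.5).

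At the far end of the locus a peak over a DIO3 start and the DIO3OS start, chr14:101559963-101560734, had 12.7 CPM in members and 0 to 1.75 CPM in the other groups, a 7.22-fold difference (3.74 to 15.97), and in the 20% portion it had 12.6 CPM against at most 5.44. A second peak over an annotated DIO3 start, chr14:101561089-101561847, went the other way, with 2.30 CPM in members and 7.21 in the AL356804.1 group. Across the 63 peaks from DLK1 to DIO3, members exceeded every other group in 12 (19.05%, against 17.2% of all 158342 peaks) and fell below every other group in 4 (6.35% against 11.8%), so the higher share was close to that of all peaks. None of the 19 peaks that were compared was called. The summed ATAC of all 63 peaks was 346 CPM in members, 570 in the AL356804.1 group and 157 to 274 in the rest. The highest ATAC peak of the locus in members, chr14:100746825-100747709, intergenic and 8601 bases from DLK1, was at 59.6 CPM and at 59.8 in the AL356804.1 group. At most peaks over MEG8 the AL356804.1 group had the higher chromatin signal, for example 29.6 CPM against 3.40 CPM in members at chr14:100988258-100989114 in a MEG8 exon. Peaks over annotated MEG8 starts were mixed. At chr14:100906866-100907881 both groups were alike (2.34 and 2.35 CPM), and at chr14:100953132-100953843 the AL356804.1 group had 0 and members 0.471 CPM. The AL356804.1 group was higher at chr14:100967697-100968567 (2.34 against 0.993 CPM) and at chr14:100972002-100972877 (5.65 against 0.889 CPM). The locus as a whole was therefore not most accessible in the nuclei with the most MEG3 and MEG8 RNA.

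**Figure D2:**
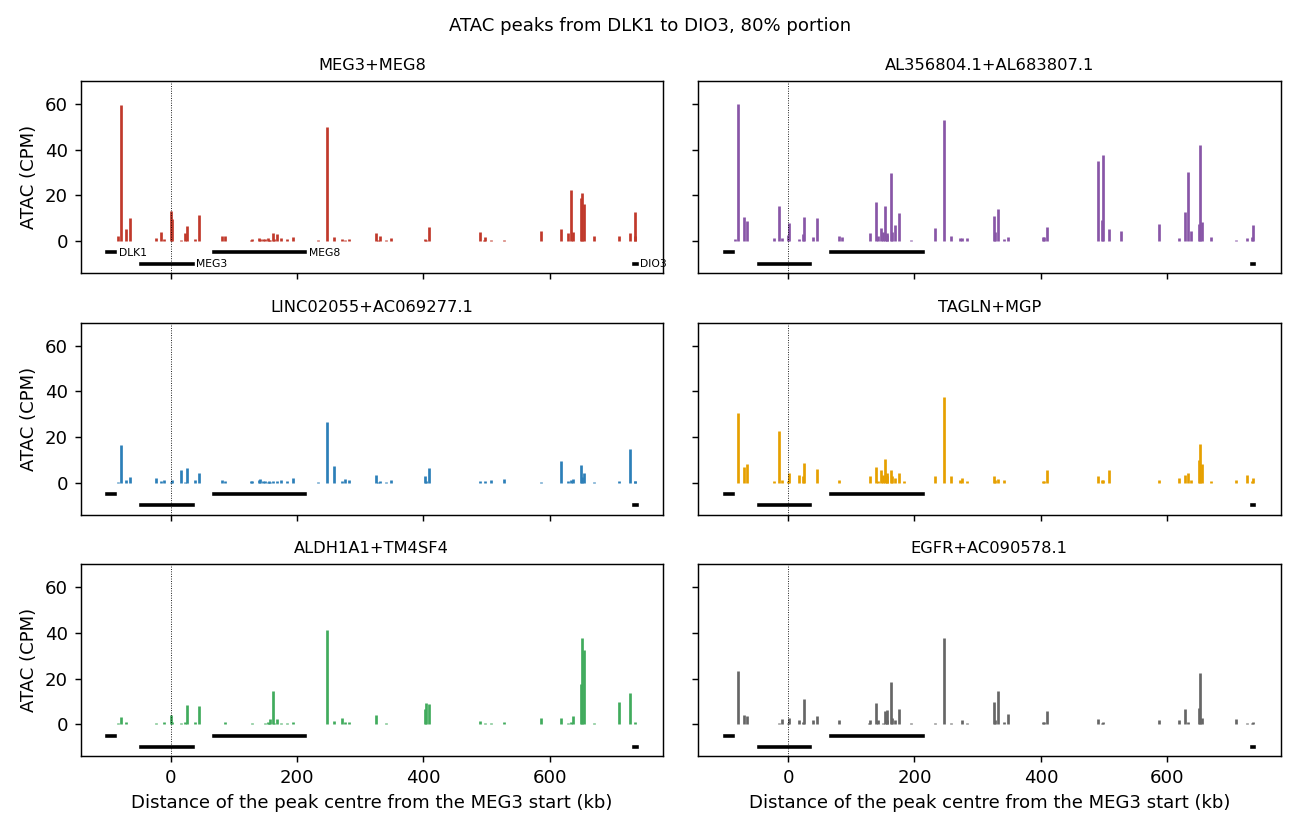
ATAC level (CPM of summed counts) of each peak from DLK1 to DIO3 against its distance from the MEG3 start (kb, dotted line), for each group in the 80% portion, with genes as bars. Members have 13.0 CPM at the MEG3 start, the highest of the 6 groups, while the AL356804.1 group is higher at most peaks over MEG8.

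Beyond the locus, 275 genes were higher in members than in every other group and 221 were lower, which are the calls behind the shares of 2.2% and 1.77%. In the 20% portion 263 of 12732 genes were higher (2.07%) and 357 lower (2.8%). The higher calls of both portions shared 209 genes, 76% of the first list and 79.5% of the second, and 273 of the 275 were above the highest other group in the 20% portion. The lower calls shared 140 genes, 63.3% and 39.2%. Since both portions hold the same mixture, this compares readings and not cultures. Of the 275 genes, 97 were at least 4-fold higher and 27 at least 8-fold. Over these genes the other groups had a median of 9.95% (LINC02055) to 19.2% (TAGLN) of the members' CPM.

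The 25 genes with the largest differences among those of at least 50 CPM in members are given below by their known roles. NLGN1, a neuronal adhesion protein that pairs with neurexins, led with 113 CPM in members against 1.10 (LINC02055), 1.32 (ALDH1A1), 7.06 (AL356804.1), 4.54 (TAGLN) and 2.09 (EGFR), 16.1-fold above the highest (12.2 to 21.6). PPP2R2B, a regulatory subunit of protein phosphatase 2A known from brain, had 163 CPM against 1.86 to 11.9 (13.7-fold, 11.1 to 17.2). CDH11, a cadherin of mesenchymal cells, was the most abundant of the 25 genes named by size of difference, with 656 CPM against 21.02 (LINC02055), 20.8 (ALDH1A1), 45.8 (AL356804.1), 55.1 (TAGLN) and 18.2 (EGFR). It was found in 96.9% of members, and its difference was 11.9-fold (10.5 to 13.5). As follows from the way they were named, no other group reached the members' level for any of these 3 genes.

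The synaptic and ion channel genes among the 25 also included STXBP5L, which regulates vesicle release, at 114 CPM against 2.71 to 11.6. KCNMA1, the pore of the large-conductance calcium-activated potassium channel, had 198 CPM against 7.25 to 25.8, and KCNE4, an accessory potassium channel subunit, 113 CPM against 4.39 to 14.5. ADGRL3, an adhesion receptor of the latrophilin family, had 85.2 CPM against 1.40 to 12.04. Of transcription factors, FOXP2 had 62.9 CPM against 1.01 to 5.95, NPAS3 69.6 against 1.22 to 8.38, and the ETS factor ETV1 148 against 10.0 to 20.3.

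Another 5 of the 25 encode matrix proteins, proteases or their inhibitor. FAP, a serine protease typical of activated fibroblasts, had 142 CPM against 4.33 to 17.1. MMP2, a gelatinase, had 85.4 CPM against 3.03 to 11.0. TIMP3, an inhibitor of matrix metalloproteinases, had 103 CPM against 5.12 to 11.9. LAMA4, a laminin chain, had 65.4 CPM against 3.72 to 7.55, and ABI3BP, a matrix-associated protein, 72.4 against 5.12 to 9.51.

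IDO1 and TDO2, which both open the indole ring of tryptophan in the first step of the kynurenine pathway, were both named. IDO1 had 117 CPM in members and 8.98 to 16.4 in the other groups (7.13-fold, 5.68 to 9.07). TDO2 had 75.6 CPM against 3.03 to 9.94 (7.61-fold, 5.68 to 10.4). BHMT2, which methylates homocysteine, had 84.4 CPM against 2.32 to 8.03. The organic anion transporter gene SLCO6A1 had 66.3 CPM against 0.697 to 4.98. The other named genes were noncoding RNAs, AC116049.2 (217 CPM against 4.63 to 26.1), LINC00491 (106 against 1.63 to 11.8), AC004870.2 (92.5 against 3.90 to 9.29), AC004875.1 (75.1 against 0.914 to 6.09) and LINC02755 (72.9 against 0.731 to 7.68). Higher values in the 20% portion were a condition for being named, and all 25 passed the 2-fold call there.

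**Figure D3:**
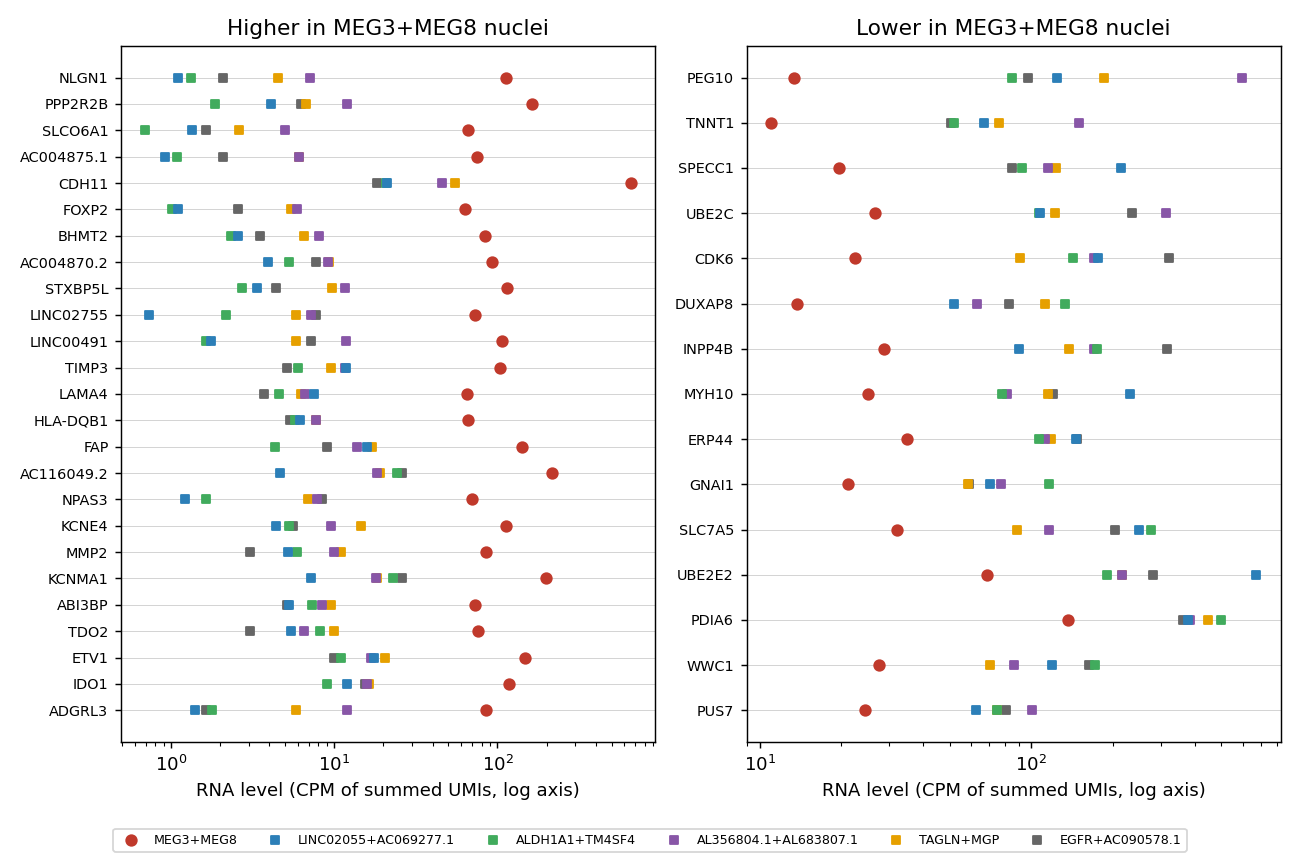
RNA level (CPM of summed UMIs, log axis) of the 25 named higher genes (left) and the 15 named lower genes (right) in the 6 groups of the 80% portion, 1 point per group. Members lie right of every other group on the left panel, up to 656 CPM for CDH11, and left of every other group on the right panel, down to 11.0 CPM for TNNT1.

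HLA-DQB1, a beta chain of the MHC class II molecules that present peptides to CD4+ T cells, was among the 25, with 66.0 CPM against 5.35 to 7.78 (8.49-fold, 6.11 to 12.2). The remaining class II genes were looked up after its value was seen. HLA-DRA, the invariant alpha chain of HLA-DR, had 255 CPM in members, 27.7 (LINC02055), 28.9 (ALDH1A1), 43.7 (AL356804.1), 47.5 (TAGLN) and 26.1 (EGFR), a 5.37-fold difference (4.70 to 6.17). CD74, the invariant chain that escorts class II molecules, had 407 CPM against 37.4 to 101 (4.03-fold, 3.74 to 4.35). HLA-DPA1 had 105 CPM against 9.83 to 17.4, HLA-DPB1 39.7 against 4.14 to 7.20, and HLA-DMA, which helps to load peptides, 120 against 15.4 to 38.0. HLA-DRB1 had 210 CPM against 21.4 to 31.1 and HLA-DRB5 79.2 against 6.28 to 14.7, but these near-identical copies share reads and their split is uncertain. All of these were called higher in both portions.

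The other class II genes were not called. HLA-DMB had 17.2 CPM in members and 16.2 in the ALDH1A1 group, and in the 20% portion members (15.8) were below another group (17.4). HLA-DQA1, with 17.7 CPM against 1.40 to 3.03, averaged too little to be compared. HLA-DOB had 1.74 CPM against 0.155 to 1.40 and HLA-DOA 1.78 against 0 to 0.553, and in the 20% portion members were below another group for both. CIITA, the master activator of class II transcription, had 10.7 CPM against 0.464 to 4.43 (2.42-fold, 1.68 to 3.60) and averaged too little to be compared. Start ATAC was looked up for 5 of these genes, and members were highest at each. At the HLA-DQB1 starts it was 46.9 CPM in members and 1.74 to 4.73 in the other groups, and at the CD74 start 31.4 CPM against 2.18 to 17.9. At the HLA-DRA start it was 11.2 CPM against 1.59 to 3.71, at the HLA-DRB1 start 12.2 against 0 to 3.09 and at the CIITA start 22.3 against 1.45 to 11.5. Immune cell markers were mostly near 0 in the same nuclei, CD68 excepted. The 12 listed markers summed to 15.5 CPM in members and 24.5 to 46.5 in the other groups, 6 of the 12 had no UMI in members, the most abundant was CD68 at 12.3 CPM, and PTPRC, which encodes CD45, was at 0.581 CPM.

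The 15 lower genes with the largest differences were named by the same rule, with at least 50 CPM in the lowest other group. PEG10, a paternally expressed gene derived from a retrotransposon, was at 13.3 CPM in members against 125 (LINC02055), 84.8 (ALDH1A1), 597 (AL356804.1), 184 (TAGLN) and 97.3 (EGFR), 6.37-fold below the lowest (5.65 to 7.18). CDK6, a kinase of the G1 to S transition, was at 22.5 CPM against 90.6 to 321 (4.02-fold, 3.54 to 4.56). UBE2C, the ubiquitin-conjugating enzyme of the anaphase-promoting complex, was at 26.5 CPM against 107 to 313 (4.03-fold, 3.68 to 4.41). TNNT1, the slow skeletal troponin T, was at 11.0 CPM against 50.5 to 150. MYH10, a nonmuscle myosin heavy chain, was at 25.02 CPM against 77.8 to 231, and SPECC1, a cytoskeletal protein gene, at 19.6 against 85.2 to 214.

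The rest of the 15 named lower genes had diverse functions. SLC7A5, the large neutral amino acid transporter, was at 32.0 CPM against 88.6 to 275. PDIA6 and ERP44, of the protein disulfide isomerase family, were at 136 CPM against 360 to 500 and at 34.8 CPM against 106 to 148. UBE2E2 was at 68.6 CPM against 189 to 672, INPP4B, a phosphoinositide phosphatase, at 28.7 against 90.3 to 315, and GNAI1, an inhibitory G protein subunit, at 21.1 against 58.6 to 116. WWC1, a Hippo pathway scaffold, was at 27.5 against 70.5 to 172, PUS7, a pseudouridine synthase, at 24.4 against 62.6 to 100.3, and DUXAP8, a noncoding RNA, at 13.7 against 52.0 to 133. Lower values in the 20% portion were a condition for being named. Of all 221 lower genes, 186 were below every other group there.

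Gene lists placed these differences in context. Each list is described by its calls and by the median, over its compared genes, of the log2 ratio of members to the mean of the other groups, which was -0.06 over all 12521 genes. From each list the called genes or the most abundant were named, and further genes of a list were chosen after their values were seen. Epithelial genes had a median of -1.55 over 17 compared genes, with none called. E-cadherin (CDH1) was at 6.35 CPM in members, 4.93 in the LINC02055 group and 202 in the EGFR group. ESRP1, an epithelial splicing factor, was at 1.45 CPM against 0.851 to 102, and EPCAM at 106 CPM against 26.0 to 787. The most abundant were the keratins KRT19 (1099 CPM against 117 to 1581), KRT7 (1044 against 313 to 2406) and KRT8 (589 against 499.6 to 2958), while KRT18 was at 609 CPM, below the 723 to 6080 CPM of every other group. CLDN4, a tight junction protein, was at 37.2 CPM in members, 5.12, 8.36 and 20.3 in the LINC02055, ALDH1A1 and TAGLN groups, and 176 and 180 in the AL356804.1 and EGFR groups. EPCAM was ordered alike, with 26.0, 40.2 and 68.9 CPM in the first 3 of these groups and 644 and 787 in the other two. Members were thus within the range of the other groups for most of these genes, and the summed level of the list was 3628 CPM in members, 1732 in the LINC02055 group and 5364 to 11270 in the rest, highest in the ALDH1A1 group. Mesenchymal genes had a median of 0.69 over 17 compared genes, with 1 called higher, the collagen gene COL6A1 (178 CPM against 13.5 to 69.4). VIM, which encodes vimentin, was at 3940 CPM against 665 to 4310, TGFBI, a matrix protein, at 678 against 363 to 1857 and COL1A1 at 260 against 15.6 to 160. The list was mixed. CDH2, which encodes N-cadherin, was at 0.944 CPM against 1.11 to 53.3 and SNAI1, a repressor of E-cadherin, at 3.38 against 6.50 to 54.5, both below every other group. COL1A2 was at 1.23 CPM against 0.609 to 74.8 and SPARC, a matrix glycoprotein, at 69.9 against 15.7 to 258.

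The NRF2 target list, genes of the antioxidant response, had a median of 0.77 over 20 compared genes, of which none was called. NQO1, a quinone reductase, stood at 2222 CPM in members, 1822 in the ALDH1A1 group and 538 to 1089 elsewhere. TXNRD1, a thioredoxin reductase, stood at 2080 CPM against 515 to 1653, AKR1C3 at 921 against 145 to 2426 and TKT at 554 against 370 to 1051. GCLC, which makes the first bond of glutathione, stood at 380 CPM in members, 196 in the ALDH1A1 group and 49.5 to 59.4 elsewhere. The summed level of the list was 10192 CPM in members, 19047 in the ALDH1A1 group and 2875 to 4199 in the rest. Members were therefore second of the 6 groups over the list.

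The lung lineage list had a median of 0.47 over 9 compared genes, none called. SFTPB and SFTPC, the surfactant genes of alveolar cells, were near 0, at 0.399 and 0.0363 CPM in members and at most 0.415 CPM in any other group. NKX2-1, the lung and thyroid lineage factor, was at 53.9 CPM against 2.68 to 77.3, and NAPSA, the aspartic protease napsin A, at 5.74 against 1.83 to 72.8. TP63, a factor of basal and squamous cells, was at 57.3 CPM against 2.80 to 82.4. SFTA3 was at 29.4 CPM against 1.52 to 39.6, and ABCA3, a lipid transporter of alveolar cells, at 19.5 CPM, within the range of the other groups.

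Of the driver gene list, 25 were compared, with 1 called higher and none lower. That gene was ROS1, a receptor tyrosine kinase, at 59.8 CPM in members against 1.70 to 18.8. Counts of a gene cannot tell a normal from a fused transcript. Of the other imprinted genes, 17 were compared, 1 of them higher and 1 lower. The lower gene was PEG10, and the higher was NDN, a paternally expressed gene of the Prader-Willi region, at 33.3 CPM against 2.32 to 4.75. H19, another noncoding RNA expressed from the maternal copy, was at 0.690 CPM (19 UMIs) in members and at 0 to 1.08 CPM elsewhere.

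The remaining lists held no further higher call. Genes of imprint upkeep and DNA methylation had a median of 0.00 (17 compared, none called), with DNMT1, the maintenance methyltransferase, at 304 CPM against 158 to 455. TGF-beta pathway genes had a median of 0.00 (19, none called), with TGFB2, a ligand, at 323 CPM against 40.9 to 165 and ID1, a target, at 848 against 319 to 769. S phase genes had a median of -0.03 (26, none called), with PCNA, the sliding clamp of replication, at 272 CPM against 223 to 428. The G2/M list had a median of 0.15 over 28 genes, with UBE2C as its lower call and ASPM, a spindle protein, at 303 CPM against 76.3 to 272. The neuroendocrine list had 2 compared genes with a median of 0.30 and a summed level of 436 CPM, most of it UCHL1 at 402 CPM, against 142 to 996 elsewhere. Abundant nuclear RNAs had a median of 0.63 (6 compared, none called), and MALAT1 alone was at 38568 CPM. Endothelial and fibroblast markers summed to 20.8 CPM in members against 8.53 to 30.5, with 2 of 10 at no UMI, and PECAM1, an endothelial marker, highest at 8.50 CPM.

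Accessible chromatin differed as well. Of 45214 peaks compared in the 80% portion, 674 were higher in members than in every other group by the same rule (1.49%) and 1114 were lower (2.46%). In the 20% portion 651 of 48069 peaks were higher (1.35%) and 3132 lower (6.52%). Peaks were called separately in each portion. Of the 674 higher peaks 672 overlapped a peak of the 20% portion, and in 624 of these (92.9%) members exceeded every other group there too. Of the 1114 lower peaks 1056 overlapped one, and in 611 (57.9%) members were below every other group. The higher peaks lay away from gene starts, since 12.9% were within 1000 bases of one against 35.0% of all peaks compared and 19.2% of the lower ones. This was not particular to members. In the peaks higher in each of the other groups by the same rule the share was 8.9% (TAGLN) to 26.6% (LINC02055).

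The 6 higher peaks with the largest differences among those of at least 50 CPM in members are given with their place in hg38. The first, chr7:128017548-128018524 in an intron of SND1, had 64.1 CPM in members against 2.35 (LINC02055), 2.87 (ALDH1A1), 13.2 (AL356804.1), 6.07 (TAGLN) and 6.38 (EGFR), a 4.84-fold difference (3.79 to 6.27), and 29.7% of members had a count. The second, chr4:8188696-8189624 in an intron of SH3TC1, had 50.7 CPM against 1.78 to 12.1. The others were chr16:11371047-11372100 in an intron of RMI2 and an exon of the protein-coding gene ENSG00000188897 (54.8 CPM against 3.83 to 13.2), chr5:160230594-160231538 in an intron of FABP6 (59.9 against 0.991 to 16.5), chr6:170279841-170280781 in an exon of LINC01624 (57.6 against 6.24 to 15.98) and chr20:31730423-31731331, intergenic and 6434 bases from BCL2L1 (51.2 against 1.68 to 19.2). Members were again highest at all 6, by 1.30 to 5.52-fold in the 20% portion.
The middle 200 bases of the first and second of these peaks, plus strand, are shown because they carry an AP-1 and an NKX2 motif, respectively. Both motifs are counted next. The same stretch of the other named peaks carried neither of them. Capitals mark TGANTCA, the AP-1 site, in the SND1 peak, chr7:128017936-128018135, and CACTTGA, the core bound by NKX2 factors, in the SH3TC1 peak, chr4:8189060-8189259.
SND1 intron peak: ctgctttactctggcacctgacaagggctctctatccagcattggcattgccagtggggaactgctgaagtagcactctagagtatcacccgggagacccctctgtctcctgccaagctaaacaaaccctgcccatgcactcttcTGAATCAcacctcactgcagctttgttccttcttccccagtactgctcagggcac
SH3TC1 intron peak: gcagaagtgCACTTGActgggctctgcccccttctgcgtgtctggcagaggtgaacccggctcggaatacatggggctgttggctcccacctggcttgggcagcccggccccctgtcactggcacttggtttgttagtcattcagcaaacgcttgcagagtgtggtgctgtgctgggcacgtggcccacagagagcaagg

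The letters CACTTGA, searched on both strands in the middle 300 bases of each peak, had the largest ratio to its share in all peaks among the 16 motifs counted. They occurred in 86 of the 674 higher peaks, or 12.8% (10.3 to 15.5), and in 4.64% of all 45202 peaks that could be read. In the peaks higher in each of the other groups, found by the same rule, the share was 4.17 to 6.91%. Away from gene starts it was 14.0% of higher peaks and 6.11% of all peaks. NKX2-1 RNA was at 53.9 CPM in members, and at 56.0 and 77.3 CPM in the AL356804.1 and EGFR groups, whose own higher peaks held CACTTGA at 6.91 and 6.88%. TGANTCA occurred in 49.7% of members' higher peaks against 33.6% of all peaks, but also in 60.5% of those of the AL356804.1 group and 52.7% of those of the TAGLN group. Its shares away from gene starts were closer, 52.98% of members' higher peaks and 46.35% of all peaks. A CTCF core motif was found in 1.48% against 7.27% of all peaks, with 2.97 to 6.33% in the higher peaks of the other groups, and the ETS motif CCGGAAG in 1.63% against 7.36%. Away from gene starts the ETS shares were 1.36% and 2.85%, and the higher peaks of the AL356804.1 and TAGLN groups held this motif at 1.93 and 2.23%. A match is only a string of letters, and binding was not measured.

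Genes that differed in RNA often differed the same way in chromatin at their start. Of the 275 higher genes 174 had a peak at their start, and for 110 of these (63.2%) members also had the highest ATAC level, against 16.7% of all genes with such a peak. Of the 221 lower genes 183 had one, and for 136 (74.3%) members had the lowest level, against 14.7%. The median log2 ratio of start ATAC, members over the mean of the others, was 0.62 for higher, -1.13 for lower and -0.01 for all genes. At the NLGN1 start ATAC was 20.0 CPM in members and 0.580 to 1.73 in the other groups, and at the CDH11 start 27.6 CPM against 1.69 to 5.40. At the UBE2C start it was 2.67 CPM against 46.2 to 93.4, and at the CDK6 starts 14.6 against 26.3 to 47.9. Exceptions among the named genes included STXBP5L, whose start had 6.69 CPM in members and 10.0 in the ALDH1A1 group, FAP, with 28.8 CPM in members and 45.5 in the EGFR group, and LAMA4, with 8.84 in members and 9.15 in the LINC02055 group. Of the lower genes, ERP44 (52.6 CPM), SLC7A5 (55.8) and INPP4B (5.28) had start ATAC in members above that of at least 1 other group.

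Many of the lower genes lay together on a few chromosome arms. Of 727 genes compared on chromosome 17, 58 were lower (7.98%), and 53 of these start before 25 Mb. Chromosome 22 had 18 of 266 (6.77%), and chromosome 7 had 24 of 611 (3.93%), of which 20 start between 50 and 120 Mb, beside 23 higher genes (3.76%). Higher genes were most frequent on chromosomes 4 (5.02%) and 6 (4.84%), and chromosome 19 had 0.116%. Of the lower genes named above, SPECC1 and MYH10 lie on chromosome 17, DUXAP8 on chromosome 22, and PEG10, CDK6, GNAI1 and PUS7 on chromosome 7. Among the named higher genes, FOXP2, ETV1, AC004870.2 and AC004875.1 lie on chromosome 7 and TIMP3 on chromosome 22.

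For most chromosomes the share of all counts lay on the same side in RNA and ATAC, chromosomes 8 (-0.11 in ATAC, 0.02 in RNA) and X (0.07 and -0.05) being the exceptions. As a log2 ratio of the members' share of ATAC counts to the mean share of the other groups, chromosome 22 was at -0.64, chromosome 20 at -0.57 and chromosome 17 at -0.30. Chromosome 4 was at 0.40, chromosomes 9 and 5 at 0.29, chromosome 14 at 0.28 and chromosome 6 at 0.27. The AL356804.1 group, set against its own 5 other groups in the same way, was at 0.30 for chromosome 14, so a high share of the chromosome that carries MEG3 was not particular to members. In RNA, with the genes of all 6 pairs included, the ratios were -0.60 for chromosome 22, -0.49 for chromosome 20 and 0.28 for chromosome 4. Over 23 chromosomes Pearson's r between ATAC and RNA ratios was 0.957, and between the ATAC ratios of both portions 0.998. These points share nuclei, libraries and the comparison groups, and a ratio to the other groups of nuclei is not a copy number. The RNA ratios also hold the UMIs on which the groups were chosen, and r without them was not computed.

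In bins of 10 Mb, the lowest ATAC value was that of chromosome 21 from 0 to 10 Mb (-1.66), which rests on 598 counts in members. Members were also the lowest of the 6 groups on chromosome 17 from 10 to 20 Mb (-1.28, RNA -0.66) and from 0 to 10 Mb (-1.26, RNA -1.16). On chromosome 7 from 50 to 60 Mb (-1.30, RNA -1.24) and chromosome 9 from 20 to 30 Mb (-1.16, RNA -1.83) they were not the lowest group. The former bin holds EGFR, whose start had 465 ATAC CPM in the EGFR group and at most 33.1 in any other group, members included, and the part of that signal in the ratio was not tested. The RNA ratio of that bin includes EGFR UMIs, on which a group was chosen (482 CPM in members, 7692 in the EGFR group). The part of these UMIs in the ratio was not tested either. The next 6 bins of chromosome 7, from 60 to 120 Mb, were at -0.95, -0.58, -1.17, -1.10, -0.99 and -0.83, with members the lowest group in each. The first 3 bins of chromosome 2 were at -0.97, -0.84 and -0.94. The highest value was that of the last bin of chromosome 6, from 170 Mb (1.08, with 39 peaks and no RNA ratio), followed by chromosome 1 from 190 to 200 Mb (0.76, RNA 0.69) and chromosome 4 from 180 to 190 Mb (0.74, RNA 0.65). Over 302 bins with RNA, r between both ratios was 0.767, again with the UMIs on which the groups were chosen.

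**Figure D4:**
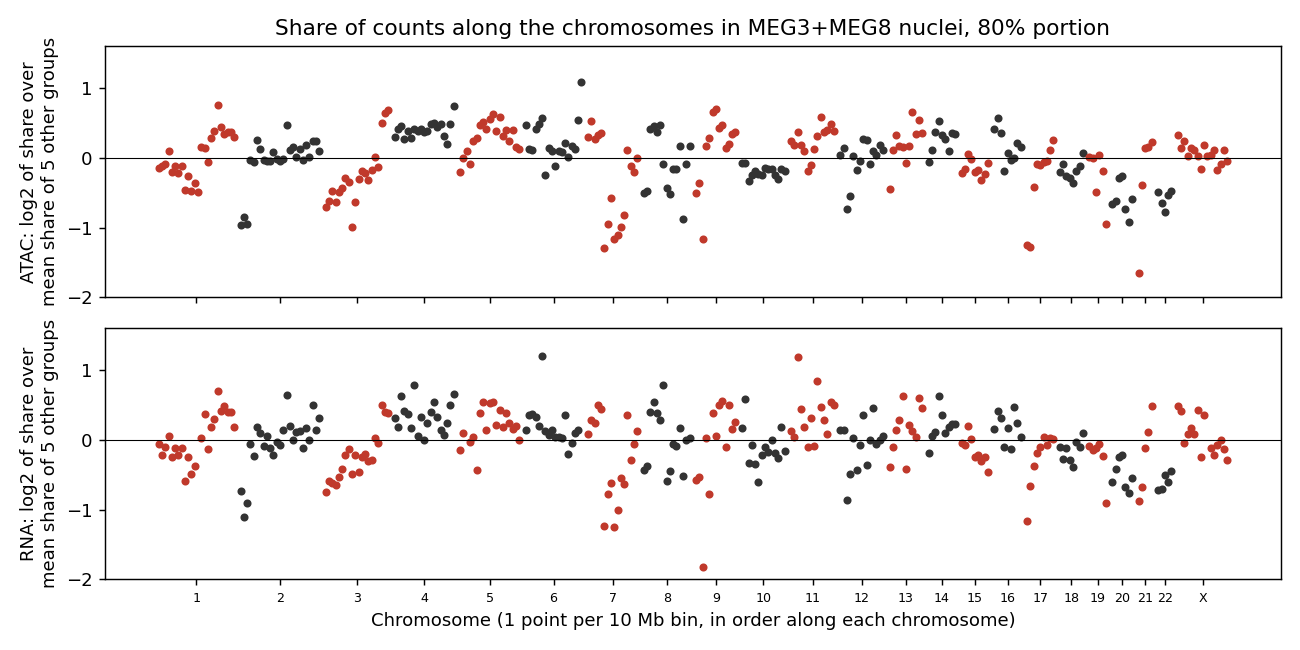
Log2 ratio of the members' share of counts to the mean share of the other 5 groups, for ATAC (top) and RNA (bottom), with 1 point per 10 Mb bin and colours alternating between chromosomes, in the 80% portion. The 2 bins of chromosome 17 before 20 Mb lie at -1.26 and -1.28 in ATAC, and most bins of chromosome 4 lie above 0.3.

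The low bin on chromosome 9 holds CDKN2A and MTAP, which are often deleted together in lung cancer. MTAP, which salvages methionine, had 1.82 CPM of RNA in members (50 UMIs), 2.13 in the LINC02055 group, and 52.6, 127, 51.4 and 306 in the ALDH1A1, AL356804.1, TAGLN and EGFR groups. ATAC at the MTAP start was 0.627 CPM in members and 0.247 in the LINC02055 group against 9.45 to 40.03 in the rest. CDKN2A, which encodes the p16 and p14ARF tumour suppressors, had 8.21 CPM of RNA, with 7.68 and 12.5 in the LINC02055 and ALDH1A1 groups and 63.1 to 406 in the others. At the CDKN2A starts members had 0 of 19126640 ATAC counts, which allows up to 0.157 CPM, and the ALDH1A1 group also had 0. The LINC02055 group had 0.124 CPM there, and the TAGLN, AL356804.1 and EGFR groups 15.9, 28.8 and 49.0. Among neighbours looked up after these values were seen, CDKN2B was at 0.145 CPM in members, 0.0609 in the LINC02055 group, 0 in the ALDH1A1 group and 10.8 to 18.4 in the rest, and KLHL9 at 0.290 CPM against 0.548 to 21.1. MLLT3, on the other side of KLHL9, was at 62.5 CPM in members, 46.9 in the TAGLN group, 71.0 in the AL356804.1 group and 166 to 288 in the rest. Absence of RNA and of open chromatin was not separated from absence of the DNA.

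ATAC alone, which the choice of members did not use, placed the members together. Among 6 clusters of all 80% nuclei at the coarsest resolution, 1 held 1621 of the 1633 members, or 99.3% (98.7 to 99.6), and 245 of the 3527 nuclei of the other groups (6.95%). Of the 12 members outside it, 10 were called doublets, and their median was 28767.5 UMIs. Of the 20 nearest neighbours of a member by ATAC, 70.7% were members on average and 3.20% belonged to another group, while 0.433 to 6.20% of the neighbours of other groups' nuclei were members. In the 20% portion the other groups' nuclei had 1.08 to 15.4% members among their neighbours, with the AL356804.1 group highest and the EGFR group at 5.41%. The 80% cluster that held most members also held 787 ungrouped nuclei. In these 787 MEG3 and MEG8 together were at 268 CPM and 674 had a UMI of either, against 82.0 CPM in ungrouped nuclei outside it.

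Members were not uniform, and a finer ATAC clustering divided them. It put 887 members (54.3%) in a first cluster, 641 (39.3%) in a second and 93 in the third, of low depth (median 1692 ATAC counts). The first and second were alike in depth, with medians of 16608 and 14252 UMIs and 11935 and 11474 ATAC counts, in mitochondrial share (0.468 and 0.413%) and in doublet calls (2.14 and 2.65%). RNA, not used in that clustering, differed between them. Of 12108 genes compared, 160 (1.32%) were at least 2-fold higher in the first and 195 (1.61%) in the second. When the 320 members of the 20% portion were placed by their ATAC alone, 185 fell to the first and 135 to the second, and 154 of the 160 and 188 of the 195 genes differed in the same direction there, 103 and 140 of them by at least 2-fold. Clustering the 20% nuclei themselves did not divide the members. All 320 were in 1 cluster at every resolution tried, and at the coarsest that cluster also held 236 of the 663 nuclei of the other groups (35.6%), among them all 49 of the EGFR group and 84 of the AL356804.1 group (92.3%), so members were not set apart there. MEG3 was at 406 CPM in the first and 367 in the second, and MEG8 at 359 and 362.

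The genes named for this division were chosen by size of difference after their values were seen. IL13RA2, a decoy receptor for interleukin 13, was at 162 CPM in the first cluster and 12.8 in the second, a 12.7-fold difference (10.6 to 15.3), and at 136 and 21.3 CPM in the 20% portion. GRIK2, a kainate receptor subunit, was at 128 and 11.8 CPM, with 130 and 6.64 in the 20% portion. CHI3L1, a secreted chitinase-like protein, was at 112 and 13.3 CPM, PCDH7, a protocadherin, at 331 and 68.6, and TNFRSF6B, a decoy receptor for Fas ligand, at 191 and 40.7. These 5 genes were higher in the first cluster in both portions.

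In the second cluster DIO2, which activates thyroid hormone, was at 102 CPM against 11.2 in the first (9.10-fold, 7.76 to 10.7), and at 132 against 16.5 in the 20% portion. FAT3, an atypical cadherin, was at 83.4 against 9.66 CPM, and TMEM176A, a membrane protein, at 62.3 against 7.95. MMP7, the protease matrilysin, was at 588 against 92.0 CPM, and PODXL, a sialomucin, at 180 against 32.5. In all, 42 of the 275 higher genes (15.3%) differed at least 2-fold between the clusters, against 2.93% of the 12108 genes compared. ETV1 was at 216 CPM in the first and 47.7 in the second, and ADGRL3 at 31.1 in the first and 175 in the second, so for both genes the lower cluster was still above every other group.

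**Figure D5:**
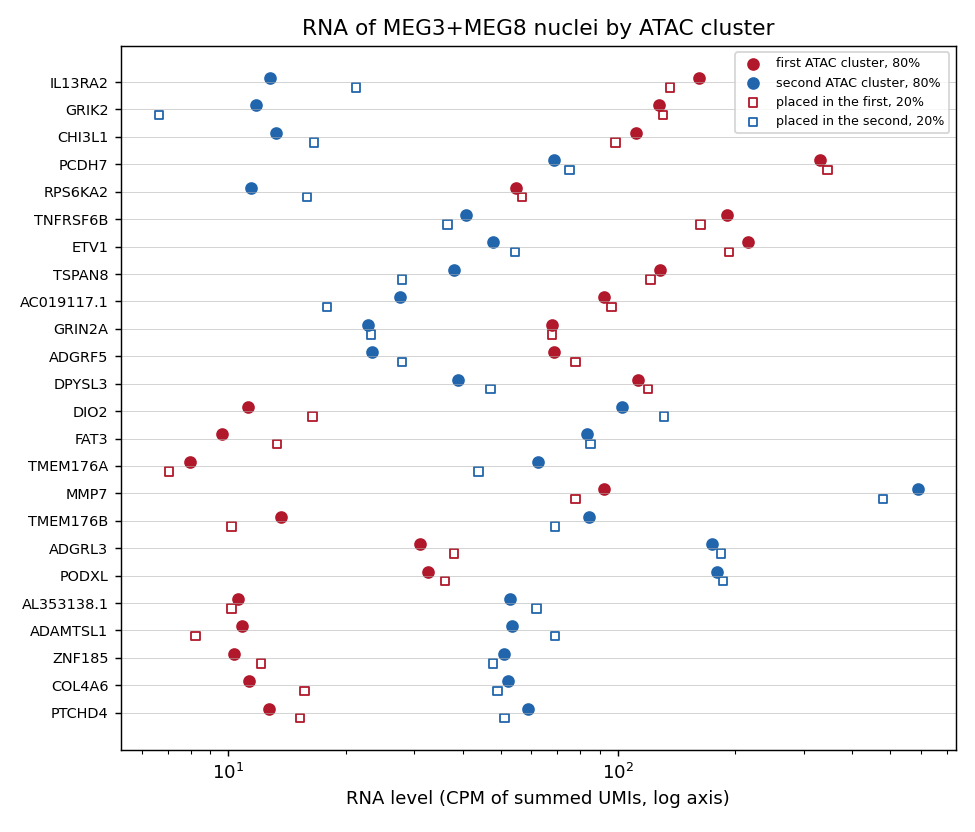
RNA level (CPM of summed UMIs, log axis) of the 24 genes named for the difference between the first and the second ATAC cluster of the members, in the 80% portion (filled points) and, placed by ATAC alone, in the 20% portion (open squares). IL13RA2 (162 against 12.8 CPM) and DIO2 (11.2 against 102) differ in opposite directions, and the 20% values fall on the same sides.

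By chromosome the clusters differed mainly on X and 18. The log2 ratio of the first to the second cluster's share was -0.51 in ATAC and -0.41 in RNA for chromosome X, and 0.31 in ATAC and 0.35 in RNA for chromosome 18. In RNA of the 20% portion the ratios were -0.38 and 0.38. All other chromosomes lay between -0.11 and 0.19 in ATAC. Whether the clusters are states or lineages within a culture, or cultures that share MEG3 and MEG8, was not tested.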

How the data were processed

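RNA and ATAC were measured in 1 library each for the 80% and the 20% portion, with long reads for the 20% portion. The authors deposited raw counts, as 1 matrix per portion with gene rows (UMIs) and peak rows (ATAC), and long-read counts per barcode. The labels name Cell Ranger ARC 2.0.0 and the study's methods name hg38, while parameters and gene annotation are not given in the sources used here. An ATAC count may be a fragment or a fragment end, which no source states. Barcodes had been called as cells.

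Members and gene lists were chosen with earlier results of these data known. The pair rule gave all groups, and the 20% portion was assigned with the 80% scaling. Counts were summed per group, divided by the group's total as CPM and compared across all genes or peaks with a mean of at least 5 CPM over the 6 groups. Folds used a floor of 3 counts, a call needed 2-fold, and intervals cover counting error only (95%). Named were the pair genes, the measured locus genes, called or most abundant genes of each list, and the 25 genes of largest fold over the highest other group and 15 of largest fold below the lowest, with at least 50 CPM in the higher of both and the same direction in the 20% portion. Named peaks were the 6 of largest fold with at least 50 CPM in members. The text says where a gene falls outside this rule. Scrublet, run through scanpy 1.11.5 at an expected rate of 0.06, gave doublet calls, and called nuclei were kept. ATAC clusters used TF-IDF, a decomposition in scipy 1.17.1, 20 neighbours and Louvain clustering in Seurat 5.3.0. The nearest neighbours of a nucleus by ATAC were found in scikit-learn 1.9.0. Gene positions came from GENCODE release 44, promoters from RefSeq and peak bases from hg38 by pysam 0.24.0. Of 36366 gene IDs found in GENCODE, 91.0% had a matching start. The scripts were tested on simulated data. Alternatives changed the minimum, margin, percentile, filters, call, portion and resolution. A withheld item and a list named for it are not reported here.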

Additional observations from a re-analysis of the deposited data

How the results depend on the processing

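The share of members (24.9%) was 27.4% with a minimum of 0.1, 16.7% with 0.4, 26.2% with a margin of 1.5, 19.1% with a margin of 4 and 17.7% with the 95th percentile. In the same order the summed level of MEG3 and MEG8 (750 CPM) was 705, 920, 736, 798 and 829 CPM, and 793 CPM in the 20% portion, and the share of members among ATAC neighbours (70.7%) was 76.3, 49.7, 73.0, 55.2 and 49.6%, and 63.7% in the 20% portion. The share in 1 ATAC cluster (99.3%) was 99.7% with a margin of 4, 99.9% without doublets, 100% in the 20% portion, where the cluster also held 35.6% of the other groups' nuclei against 6.95% in the 80% portion, and 54.3% at resolution 0.2. ATAC at the MEG3 start (13.0 CPM) was 7.72 CPM in the 20% portion. The chromosome 22 ratio (-0.64) was -0.66 with a minimum of 0.4, -0.62 with a margin of 1.5, -0.67 with a margin of 4, -0.61 with the 95th percentile, -0.67 without doublets and -0.61 without peaks near gene starts. With a mean of at least 20 CPM, with no filter, with a 4-fold call and with all other barcodes as 1 group, higher genes (275) numbered 105, 714, 97 and 818, lower genes (221) 99, 1658, 27 and 1162, higher peaks (674) 12, 5571, 87 and 5533, and lower peaks (1114) 121, 12419, 298 and 3096. In the 20% portion there were 357 lower genes and 3132 lower peaks. CACTTGA was in 9.20% of higher peaks (12.8%) in a 200-base window, and in 3.11% of all peaks (4.64%). The causes were not tested, beyond the fewer or more features and nuclei that each setting admits. The counts of 160 and 195 genes for the divided members were 160 and 212 without doublets and 162 and 200 without shared barcodes, both added after seeing the data. Depth limits low genes most, since 1 count in the members' RNA of the 20% portion weighs more than in the 80% portion. No paired analysis was possible because each portion holds 1 library of each kind and no test was run.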
